A study of Mus musculus with 9 samples.

Results

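The comparison concerned MC3T3-E1 cells treated for 16 hours with 4 mM β-glycerophosphate (BGP, an organic phosphate) against untreated Control cells. Its members were the 3 BGP and the 3 Control libraries, which are 6 of the 9 RNA sequencing libraries of the study, and all 13679 genes that passed the filter on low counts. MC3T3-E1 is a wild-type pre-osteoblastic line from mouse calvarial bone, of which 1 subclone was used. Both groups had been differentiated in osteogenic medium with 10 mM BGP, ascorbic acid and dexamethasone, so that Control cells had also met BGP before. The labels give 27 days of this medium, whereas the methods of the study describe a final week without BGP. At day 27 one group received 4 mM BGP and the Control group no added phosphate, both in αMEM, which itself holds inorganic phosphate, and RNA was taken at day 28. The remaining 3 libraries came from cells given inorganic phosphate (NaHPO4), and they entered the fit for its estimate of the spread and the filter on low counts. The comparison asks which genes responded when an organic phosphate was added to osteocyte-like cells.

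Osteoblasts lay down bone matrix and some of them become osteocytes, the cells embedded in bone that secrete the hormone FGF23. FGF23 acts on the kidney to lower phosphate reabsorption. Alkaline phosphatase on the cell surface splits BGP and other phosphate esters, which frees inorganic phosphate, and pyrophosphate made and exported by the same cells inhibits the growth of mineral.

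The libraries held between 21390839 and 25646046 counts in the Control group and between 22331071 and 23546609 in the BGP group. Levels are given in CPM, the counts of a gene per 1000000 counts of its library, after scaling by TMM factors, which lay between 0.989 and 1.00. The mitochondrial genome took 2.51% to 2.70% of the counts. Along the first principal component (33.1% of the variance of the 500 most variable genes) the 3 Control libraries lay between -10.2 and -5.58 and the 3 BGP libraries between 5.07 and 11.1. The labels number the replicates without saying that they are separate cultures, so the p-values measure the spread between these libraries, which may be technical. The osteoblast markers *Runx2*, *Sp7*, *Col1a1*, *Bglap*, *Bglap2*, *Alpl* and *Ibsp* summed to 55260 to 59000 CPM in the Control libraries and to 53560 to 57200 CPM in the BGP libraries. Summed markers of fat (26.0 to 31.7 and 24.0 to 27.9 CPM), skeletal muscle (9.28 to 10.1 and 7.84 to 8.89 CPM) and macrophages and osteoclasts (290 to 297 and 276 to 287 CPM) were no higher with BGP. *Myod1* and *Myog*, which define skeletal muscle, had 0 counts in all 6 libraries, *Ptprc* of blood cells had at most 1 count, and *Acan* of cartilage at most 1. The osteocyte markers (*Dmp1*, *Phex*, *Mepe*, *Sost*, *Pdpn*, *Fgf23*) summed to 138 to 159 CPM in the Control libraries and to 600 to 686 CPM with BGP, and *Dmp1* made up most of the latter sum. The mean of *Dmp1* alone rose by 476 CPM. Of the 6 markers 3 had a log2FC above 0 and 3 below 0, so the rise of the sum does not stand for all of them. In bulk RNA, fewer cells of a type and less RNA per cell cannot be told apart.

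Treatment with BGP upregulated 66 genes and downregulated 10 compared to Control, where a differentially expressed gene (DEG) had an adjusted p (FDR) below 0.05 and a log2 fold change (log2FC) above 0.5 or below -0.5. The 66 upregulated DEGs are 0.482% and the 10 downregulated DEGs 0.0731% of the tested genes. Without the limit on the fold change, 255 genes (1.86%) were called higher and 91 (0.665%) lower. Of the 346 called genes, 340 had libraries that did not overlap between the groups, against 2536 of the 13679 tested genes (18.5%). Among the DEGs the exception was *Zfp618*, whose values of 4.48 to 6.93 CPM in Control met those of 6.74 to 10.3 CPM with BGP, and whose call was lost in 4 of the 6 omissions of 1 library (adjusted p up to 0.266, without BGP replicate 1). Most calls were small, with a median log2FC of 0.28 for the genes called higher and of -0.19 for those called lower, and 33 of the upregulated DEGs had a log2FC of at least 1. Over all tested genes the median log2FC was -0.004. In the plot of change against level, the upregulated DEGs reached from genes under 1 CPM (11 of the 66 in Control) to genes over 100 CPM (7 of the 66).

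**Figure D1:**
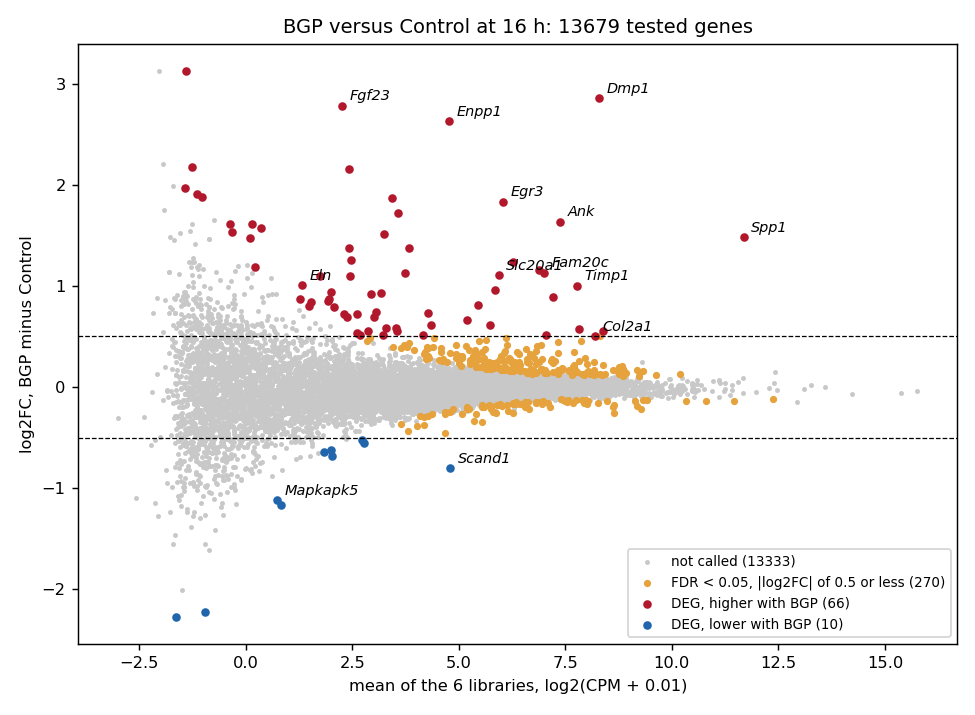
Log2FC (BGP minus Control) of the 13679 tested genes against the mean level of the 6 libraries, as log2(CPM + 0.01), with DEGs in red (66 higher) and blue (10 lower), genes below the fold limit of 0.5 (dashed lines) but with an FDR under 0.05 in orange (189 higher, 81 lower) and the others in grey. The upregulated DEGs outnumber the downregulated ones and include abundant transcripts such as *Spp1*, whereas 9 of the 10 downregulated DEGs were under 10 CPM in Control.

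With any 1 of the 6 libraries left out, 53 to 69 genes were upregulated DEGs, and 41 of the 66 remained DEGs each time. The downregulated DEGs numbered 1 to 9 under the same omissions. Without BGP replicate 2 the 1 remaining was *Scand1*, and without Control replicate 1 there were 5. The genes called higher at any fold fell to 154 without BGP replicate 1, and those called lower to 40, 57, 48 and 34 without Control replicate 1, Control replicate 3, BGP replicate 1 and BGP replicate 2. At the limit of the fold change, *Col2a1* (log2FC 0.50), *Itgb3* (0.51) and *Sspo* (0.51) lay just inside, and *Mgp* (0.50), *Bhlhe40* (0.48) and *Slc16a4* (0.48) just outside, with *Mgp* at 0.4993. *Sspo* missed the criteria without Control replicate 2 (adjusted p = 0.0742) and without BGP replicate 1 (log2FC 0.48).

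Genes of phosphate and mineral handling included several of the DEGs with the largest changes. Of the 26 genes listed, 21 were tested, 10 were called higher and 1 lower, and 8 of the 10 were DEGs. These calls were 47.6% and 4.76% of the 21, against 1.86% and 0.665% of all tested genes. The shares over all tested genes are the same for the later lists. All lists were chosen with earlier results of these data known, so their shares describe the members and are no test of a list. The median log2FC of the 21 was 0.10, and it moved to 0.19 without Control replicate 2 and to 0.18 without BGP replicate 3. *Fgf23*, the phosphate-lowering hormone, had 1.08, 0.914 and 1.61 CPM in the Control libraries and 10.2, 7.41 and 7.52 CPM with BGP. All 3 BGP libraries thus lay above all Control libraries, and *Fgf23* rose 6.88-fold (log2FC 2.78 ± 0.20 SE, adjusted p = 1.07e-12). *Dmp1*, an acidic matrix protein of osteocytes, had 73.7, 67.0 and 87.4 CPM in Control and 598, 542 and 516 CPM with BGP. The groups did not overlap, and *Dmp1* rose 7.24-fold (log2FC 2.86 ± 0.062 SE, adjusted p = 1.2e-28). *Spp1* encodes osteopontin, a phosphorylated matrix protein that binds mineral and integrins. It had 1645, 1682 and 1881 CPM in Control and 4842, 5187 and 4489 CPM with BGP, a 2.79-fold rise (log2FC 1.48 ± 0.048 SE, adjusted p = 3.42e-23).

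The bases just before the transcription start of these 3 genes are shown since the genes rose together. They were read from GRCm39 on the plus strand, 250 bases before the start of the canonical transcript, at chr6:127049615-127049864 for *Fgf23*, chr5:104350226-104350475 for *Dmp1* and chr5:104581915-104582164 for *Spp1*. None of the windows holds an annotated exon. The *Dmp1* window lies inside the annotated gene, which begins at 104345340 with a longer transcript. None of the letter motifs searched for, which are given with the EGR genes, was found in them, which says only that these letters are not in these windows.
Fgf23: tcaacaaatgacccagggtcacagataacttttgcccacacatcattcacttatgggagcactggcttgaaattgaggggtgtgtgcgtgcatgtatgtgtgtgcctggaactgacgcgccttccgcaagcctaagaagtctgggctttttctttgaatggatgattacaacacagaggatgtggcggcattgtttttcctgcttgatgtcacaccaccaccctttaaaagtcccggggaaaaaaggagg
Dmp1: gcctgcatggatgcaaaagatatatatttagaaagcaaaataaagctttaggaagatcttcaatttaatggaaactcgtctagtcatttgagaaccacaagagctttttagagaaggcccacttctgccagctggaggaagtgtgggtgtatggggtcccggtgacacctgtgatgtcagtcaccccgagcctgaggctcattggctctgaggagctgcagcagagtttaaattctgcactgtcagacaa
Spp1: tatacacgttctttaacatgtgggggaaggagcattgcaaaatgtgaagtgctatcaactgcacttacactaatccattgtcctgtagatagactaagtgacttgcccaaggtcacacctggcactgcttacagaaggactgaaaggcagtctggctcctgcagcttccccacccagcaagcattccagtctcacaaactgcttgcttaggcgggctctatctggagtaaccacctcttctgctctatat

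Genes that make or export pyrophosphate also rose. *Enpp1*, which makes pyrophosphate from ATP, had 7.95, 4.70 and 10.1 CPM in Control and 53.8, 45.7 and 42.0 CPM with BGP. This 6.17-fold rise (log2FC 2.63 ± 0.12 SE, adjusted p = 4.89e-19) was the third largest among the DEGs above 1 CPM in Control, after *Dmp1* and *Fgf23*. *Ank*, which exports ATP and pyrophosphate, had 82.8, 73.7 and 87.6 CPM in Control and 259, 259 and 240 CPM with BGP (log2FC 1.64 ± 0.054 SE, adjusted p = 5.86e-23). *Otulin*, which overlaps *Ank* on the opposite strand, had a log2FC of -0.08 (adjusted p = 0.66). *Enpp3*, a relative of *Enpp1* that also splits nucleotides, lies on the same chromosome, at chr10:24648304-24718721 against chr10:24513812-24588057 for *Enpp1*. It rose from 0.401 ± 0.106 to 1.17 ± 0.123 CPM (SD, n = 3; adjusted p = 0.0161), but this call was lost in 3 of the 6 omissions of a library, with adjusted p values up to 0.0972 (without Control replicate 1).

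The phosphate transporter *Slc20a1* had 40.02, 39.2 and 37.5 CPM in Control and 82.2, 86.8 and 81.8 CPM with BGP, a rise of 2.15-fold (log2FC 1.10 ± 0.048 SE, adjusted p = 3.25e-19). Its relative *Slc20a2* had a log2FC of -0.07 ± 0.050 SE (adjusted p = 0.58) and the phosphate exporter *Xpr1* 0.06 ± 0.047 SE (adjusted p = 0.607). *Fam20c*, the kinase that phosphorylates secreted proteins such as FGF23 and osteopontin, had 80.8, 76.1 and 83.5 CPM in Control and 183, 180 and 164 CPM with BGP (log2FC 1.13 ± 0.050 SE, adjusted p = 4.38e-19). *Fam20a*, a relative without kinase activity that assists FAM20C, rose from 14.6 ± 2.79 to 24.4 ± 1.70 CPM (SD, n = 3; log2FC 0.73, adjusted p = 8.4e-07). *Mgp*, an inhibitor of mineral, with 264 ± 9.42 CPM in Control and 373 ± 5.99 CPM with BGP, and *Phex*, a protease gene whose loss raises FGF23 and impairs mineralization, were called below the fold limit. The *Phex* call (log2FC 0.26, adjusted p = 0.0333) was lost in 5 of 6 omissions, with an adjusted p of 0.29 without BGP replicate 1. *Smpd3*, a lipase required for normal mineralization, was called lower (log2FC -0.13, adjusted p = 0.0276), a call lost in 4 omissions with adjusted p values up to 0.234 (without BGP replicate 2).

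Other mineral genes were not called. *Alpl*, the alkaline phosphatase that splits BGP, had 74.2, 76.5 and 80.1 CPM in Control and 76.1, 72.5 and 71.1 CPM with BGP, with overlapping groups (log2FC -0.07 ± 0.044 SE, adjusted p = 0.511). *Sost*, an inhibitor of Wnt signalling made by osteocytes, had 1.40, 1.35 and 1.42 CPM in Control and 1.53, 1.57 and 0.516 CPM with BGP (log2FC -0.21 ± 0.33 SE, adjusted p = 0.852). Its sign turned to 0.16 without BGP replicate 3, which had the lowest value. *Galnt3* and *Furin*, which protect FGF23 from cleavage and cleave it, had log2FC values of 0.10 and 0.02 (adjusted p = 0.756 and 0.88). *Dspp*, *Slc34a1* and *Slc34a2* had at most 3 counts in a library and were not tested.

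**Figure D2:**
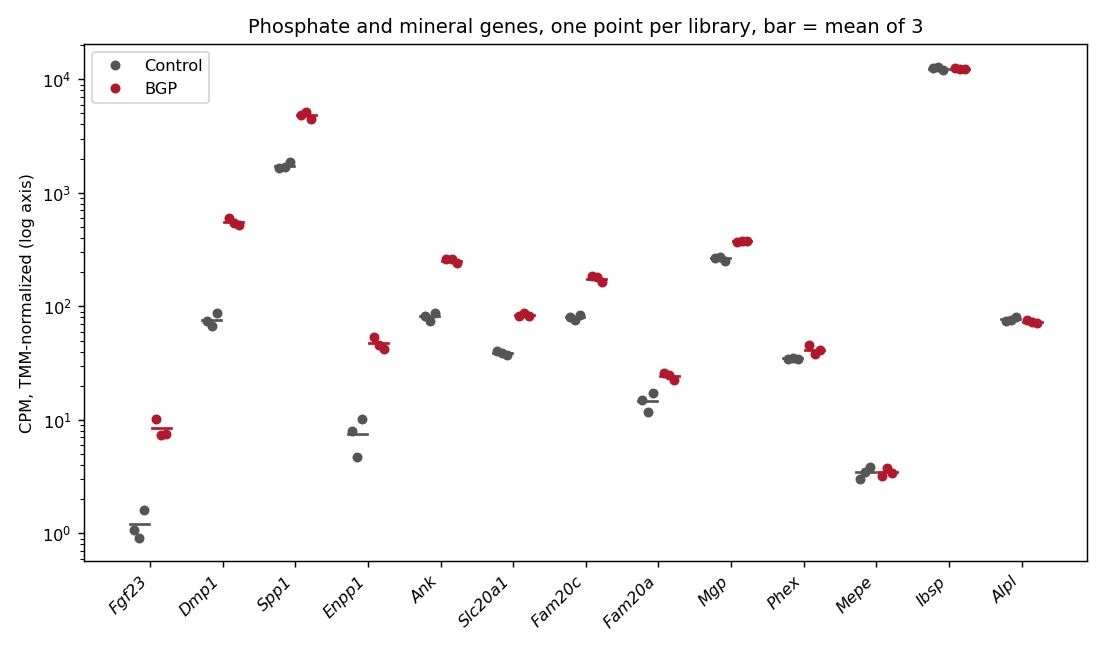
Level in CPM (log axis) of 13 genes of phosphate and mineral handling in each of the 3 Control (grey) and 3 BGP (red) libraries, with a bar at the mean of 3. *Fgf23*, *Dmp1*, *Spp1*, *Enpp1*, *Ank*, *Slc20a1*, *Fam20c* and *Fam20a* show no overlap of the groups, and *Mepe*, *Ibsp* and *Alpl* do; the values are not divided by gene length, so heights are comparable within a gene and not between genes.

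*Dmp1* and *Spp1* belong to a cluster of genes on chromosome 5 that encode acidic matrix proteins, and the members between them did not follow. *Ibsp*, which starts 101697 bases after *Dmp1*, had 12540, 12710 and 12040 CPM in Control and 12490, 12270 and 12430 CPM with BGP (log2FC -0.0036 ± 0.028 SE, adjusted p = 0.972). *Mepe*, which starts 127855 bases after *Dmp1*, had 3.45 ± 0.391 and 3.44 ± 0.266 CPM (SD, n = 3; log2FC -0.0069 ± 0.18 SE, adjusted p = 0.99). *Spp1* starts 236825 bases after *Dmp1*, and *Pkd2*, the next gene tested after it, had a log2FC of -0.03 (adjusted p = 0.775). Around *Fgf23*, at chr6:127049865-127059255, *Tigar* and *Ccnd2* had log2FC values of 0.26 and 0.15 (adjusted p = 0.46 and 0.226), *D6Wsu163e* and *Rad51ap1* of 0.02 and -0.09 (adjusted p = 0.941 and 0.728), and *Fgf6* had at most 2 counts. *Gm42793*, a predicted gene inside *Spp1* on the same strand, was a DEG (log2FC 2.15), but 18.04% of its 50-base windows are shared with *Spp1*, and its value is uncertain.

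The EGR transcription factors, immediate early genes that answer growth factor signals, were among the DEGs. Of the 28 immediate early genes listed 27 were tested, 8 were called higher and 1 lower, and 4 were DEGs. The calls were 29.6% and 3.70% of the 27, against 1.86% and 0.665% of all tested genes. The median log2FC was 0.13, or 0.07 without BGP replicate 1, 0.08 without Control replicate 2 and 0.09 without BGP replicate 2. *Egr3* had 30.2, 25.9 and 30.7 CPM in Control and 116, 101 and 92.6 CPM with BGP (log2FC 1.83 ± 0.067 SE, adjusted p = 1.17e-21). *Egr2* had 6.83, 7.92 and 8.97 CPM in Control and 22.6, 18.4 and 20.8 CPM with BGP (log2FC 1.38 ± 0.10 SE, adjusted p = 1.82e-12). *Egr1* had 102, 98.8 and 109 CPM in Control and 205, 184 and 184 CPM with BGP (log2FC 0.89 ± 0.042 SE, adjusted p = 4.99e-18). The groups did not overlap for any of the 3. *Arc*, known as a neuronal immediate early gene, rose from 2.76 ± 0.343 to 5.28 ± 1.00 CPM (SD, n = 3; log2FC 0.94, adjusted p = 0.000708). *Junb* (log2FC 0.42), *Nr4a1* (0.40), *Ier2* (0.37) and *Btg2* (0.35) were called below the fold limit, and the *Nr4a1* call was lost without Control replicate 2 and without BGP replicate 1 (adjusted p = 0.0658 and 0.122). *Jund* was called lower (log2FC -0.33, adjusted p = 0.00169), and *Fos*, the partner of the JUN proteins, had a log2FC of 0.14 ± 0.14 SE (adjusted p = 0.732).

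The window before *Egr2* (chr10:67373442-67373691, plus strand of GRCm39) is shown because it holds a CArG box, the element bound by serum response factor, in capitals. It spans bases -65 to -56 before the start. An exon of the predicted gene *Gm66196* also reaches into it. The window before *Sipa1l2*, a DEG that regulates small GTPases (log2FC 0.61, adjusted p = 6.85e-07), is shown as read on its own, minus strand at chr8:126296626-126296875, and holds a pair of EGR motifs in capitals.
Egr2: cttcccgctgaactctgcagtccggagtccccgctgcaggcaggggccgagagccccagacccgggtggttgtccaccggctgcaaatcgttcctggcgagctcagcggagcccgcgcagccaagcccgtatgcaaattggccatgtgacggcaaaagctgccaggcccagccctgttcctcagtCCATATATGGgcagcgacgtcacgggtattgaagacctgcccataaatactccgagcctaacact
Sipa1l2: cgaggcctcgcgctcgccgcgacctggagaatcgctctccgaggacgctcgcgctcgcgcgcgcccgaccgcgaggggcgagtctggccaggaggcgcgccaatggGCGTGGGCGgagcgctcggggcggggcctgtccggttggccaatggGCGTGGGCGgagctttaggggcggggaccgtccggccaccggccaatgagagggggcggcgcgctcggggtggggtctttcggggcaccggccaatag

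Motifs were searched as letters on both strands of the 250 bases before the start of the 13630 tested genes with a position, and no motif contains another. A CArG box was present for 3 of the 66 upregulated DEGs (4.55%), *Egr2* among them, and for 1.17% of all tested genes. The EGR motif, GCGTGGGCG or GCGGGGGCG, was present for 6 upregulated DEGs (9.09%; *Slc29a1*, *Tnfrsf12a*, *Slc39a14*, *Sipa1l2*, *Itgb8* and *Sstr2*) and 4.04% of all. The AP-1 motif TGAGTCA was present for 5 (7.58%) and 3.19% of all, the cAMP response element TGACGTCA for 3 (4.55%; *Trib1*, *Sstr2* and *Idi1*) and 1.95% of all, the ETS motif CCGGAAGT for 1 (1.52%) and 3.84% of all, and the E-box CACGTG for 4 (6.06%) and 7.54% of all. The sterol regulatory element TCACCCCAC was present for *Hmgcs1* and *Fasn*, 2 of the 21 tested genes of sterol and fatty acid synthesis (9.52%), and for 0.477% of all. At any fold, the EGR motif was present for 7.06% of the genes called higher and 6.74% of those called lower. The same shares were 3.92% and 3.37% for the cAMP response element, 5.49% and 1.12% for AP-1, and 2.35% and 1.12% for the CArG box. For the ETS motif they were 1.18% and 1.12%, and for the E-box 7.45% and 3.37%. These shares are descriptions of letters in windows and no measure of binding.

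Genes that ERK signalling is known to induce, many of which act back on the pathway, rose as well. Of 18 listed genes 17 were tested, 9 were called higher, 0 lower, and 5 were DEGs. The genes called higher were 52.9% of the 17, against 1.86% of all tested genes, and the median log2FC was 0.39. Since this list was also chosen with earlier results known, the share is a description and no test. *Etv4*, an ETS factor, had 4.68, 4.05 and 5.20 CPM in Control and 18.5, 17.7 and 14.96 CPM with BGP (log2FC 1.87 ± 0.12 SE, adjusted p = 6.01e-14). *Dusp6*, the phosphatase that switches ERK off, had 45.5, 38.98 and 52.8 CPM in Control and 119, 108 and 97.3 CPM with BGP (log2FC 1.23 ± 0.068 SE, adjusted p = 3.84e-16). *Phlda1* rose from 4.90 ± 1.27 to 14.1 ± 0.941 CPM (SD, n = 3; log2FC 1.51) and *Trib1*, a pseudokinase, from 3.30 ± 0.421 to 7.85 ± 0.475 CPM (log2FC 1.25). *Spry4*, a receptor signalling inhibitor, rose from 0.699 ± 0.158 to 1.60 ± 0.272 CPM (log2FC 1.18, adjusted p = 0.0337), a call lost in 5 of 6 omissions with adjusted p values up to 0.159 (without Control replicate 2). Below the fold limit *Spry1* (log2FC 0.46; adjusted p = 0.118 by DESeq2), *Etv5* (0.41), *Spred1* (0.34) and *Errfi1* (0.17) were called, *Etv5* in 2 of the 6 omissions only, with adjusted p values up to 0.217 (without Control replicate 2). *Dusp1* was not called (log2FC -0.0021, adjusted p = 0.993).

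Among EGF and FGF ligands and receptors 11 of 25 were tested and 2 were called higher, *Ereg* and *Fgf2* (18.2% of the 11, against 1.86% of all tested genes). *Ereg*, the EGF receptor ligand epiregulin, had 0.234, 0.261 and 0.118 CPM in Control and 1.13, 0.359 and 0.774 CPM with BGP, which is 3 to 25 counts a library. Its rise (log2FC 1.88 ± 0.52 SE, adjusted p = 0.0433) was lost in 5 of 6 omissions (adjusted p = 0.317 without BGP replicate 1), by DESeq2 (0.0775), by limma on the TMM table (0.0739) and with the replicate number as a block (0.0527), and with only the Control and BGP libraries in the filter it was not tested. *Fgf2* had a log2FC of 0.29 (adjusted p = 0.0279), lost in 5 omissions (up to 0.129, without Control replicate 3). The ligand *Epgn* stayed under the filter with 0, 1 and 2 counts in Control and 12, 3 and 5 with BGP. *Egfr* and *Fgfr1* had log2FC values of 0.07 and 0.04 (adjusted p = 0.855 and 0.672).

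**Figure D3:**
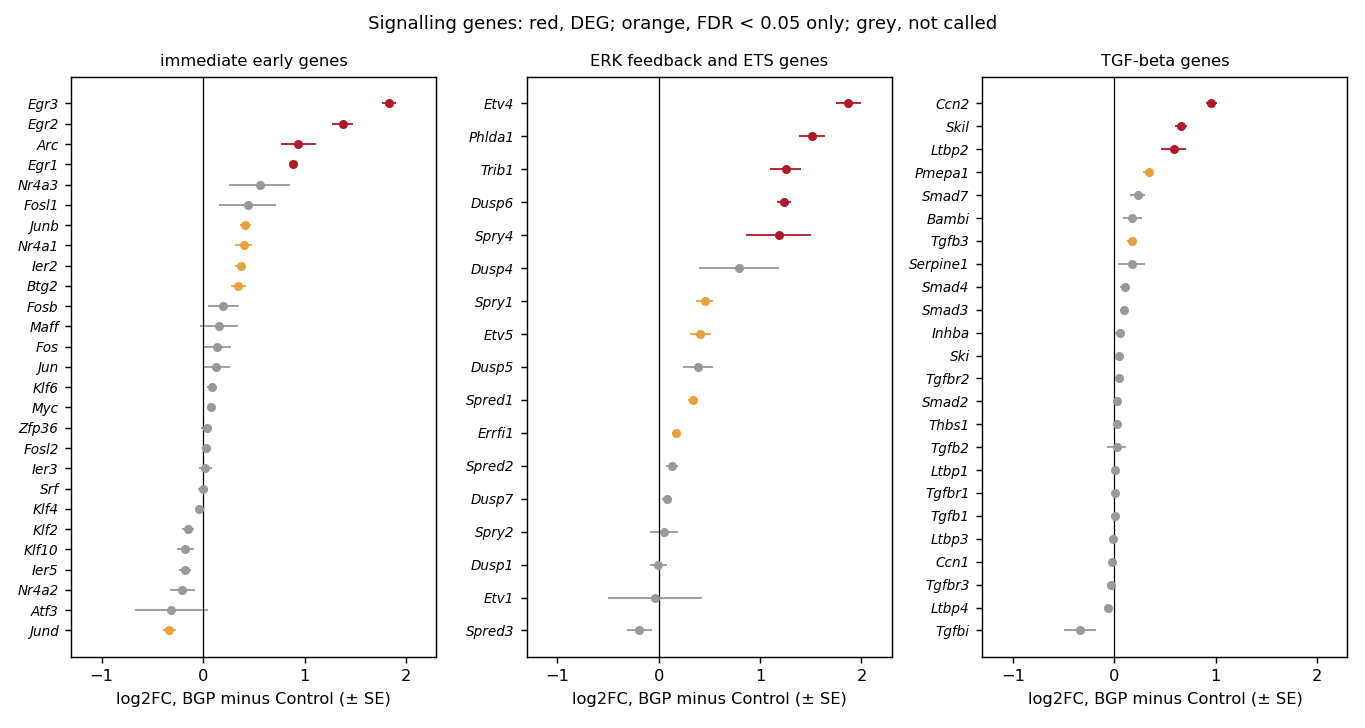
Log2FC (BGP minus Control, horizontal axis) with its standard error for every tested immediate early gene (27), ERK feedback or ETS gene (17) and TGF-beta gene (24), with DEGs in red, genes with an FDR under 0.05 below the fold limit in orange and the others in grey. *Egr3*, *Egr2*, *Etv4* and *Phlda1* lie above 1, and most TGF-beta genes lie near 0 (median log2FC 0.05).

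In the TGF-beta list 24 genes were tested, 5 were called higher and 0 lower, and 3 were DEGs. The genes called higher were 20.8% of the 24, against 1.86% of all tested genes. The median log2FC was 0.05, or 0.07 without Control replicate 2. *Ccn2*, a matricellular protein known as connective tissue growth factor, had 41.5, 36.6 and 39.7 CPM in Control and 76.4, 82.2 and 69.8 CPM with BGP (log2FC 0.96 ± 0.055 SE, adjusted p = 8.03e-16). *Skil*, a repressor of SMAD proteins, had 29.2, 26.0 and 29.6 CPM in Control and 46.4, 46.7 and 41.1 CPM with BGP (log2FC 0.66 ± 0.062 SE, adjusted p = 8.59e-10). *Ltbp2*, a relative of the latent TGF-beta binding proteins, rose from 7.82 ± 0.842 to 11.8 ± 2.14 CPM (SD, n = 3; log2FC 0.59, adjusted p = 0.00239). *Pmepa1* was called below the fold limit (log2FC 0.34), as was *Tgfb3* (0.18, adjusted p = 0.0481), whose call was lost in 5 omissions (up to 0.221, without Control replicate 1) and in the fits scaled by total counts (0.0562) and by DESeq2 (0.0789). *Smad7*, the inhibitory SMAD, had 17.5, 17.7 and 18.5 CPM in Control and 21.5, 21.8 and 19.8 CPM with BGP; the groups did not overlap, but the test did not pass (log2FC 0.23 ± 0.075 SE, adjusted p = 0.103).

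Of the other signalling lists, *Hes1*, a repressor induced by Notch, was the 1 call among 15 Notch genes (6.67%, against 1.86% of all tested genes). It had 5.84, 6.74 and 5.87 CPM in Control and 11.7, 9.25 and 8.98 CPM with BGP (log2FC 0.70 ± 0.12 SE, adjusted p = 0.000381), while the receptor *Notch1* had a log2FC of -0.04 (adjusted p = 0.806). In edgeR's quasi-likelihood test, as in DESeq2 and limma, calls numbered 0 among 15 BMP and ID genes (median log2FC -0.009), 0 among 19 Wnt genes (median -0.07) and 0 among 20 interferon response genes (median 0.003). At an unadjusted p under 0.05 there were 1 higher and 2 lower BMP and ID genes, 1 higher and 3 lower Wnt genes and 2 lower interferon genes. *Prkg2* and *Prkg1*, kinases activated by cyclic GMP, were both DEGs. They were 33.3% of the 6 cyclic GMP genes tested, against 1.86% called higher over all tested genes. *Prkg2*, which regulates growth plate cartilage, had 4.63, 5.13 and 6.81 CPM in Control and 20.7, 17.8 and 16.8 CPM with BGP (log2FC 1.72 ± 0.11 SE, adjusted p = 4.85e-14). *Prkg1* rose from 0.621 ± 0.420 to 1.91 ± 0.709 CPM (SD, n = 3; adjusted p = 0.0333), lost in 3 omissions (up to 0.268, without BGP replicate 1) and by DESeq2 (0.325); the other 4 cyclic GMP genes tested were not called.

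Genes of matrix and adhesion included DEGs in several lists. *Timp1*, an inhibitor of matrix metalloproteinases, had 135, 149 and 152 CPM in Control and 279, 306 and 288 CPM with BGP (log2FC 1.00 ± 0.048 SE, adjusted p = 5.09e-18). It was the 1 call among 23 proteases and inhibitors (4.35%, against 1.86% of all tested genes), and *Mmp13* had a log2FC of 0.02. Of 13 elastic fibre genes 15.4% were called higher at any fold, against 1.86% of all tested genes. *Eln*, the elastic fibre protein elastin and the 1 DEG among the 13, had 2.01, 1.83 and 1.18 CPM in Control and 5.05, 2.38 and 2.58 CPM with BGP. BGP replicate 1 was the highest, and the call (log2FC 1.00 ± 0.28 SE, adjusted p = 0.0378) was lost without it (log2FC 0.58, adjusted p = 0.483), in 3 further omissions, by DESeq2 (0.0633) and on the deposited TMM table (0.0893). The integrin subunits *Itgb8* (5.27 ± 0.178 to 9.99 ± 1.02 CPM, SD, n = 3; log2FC 0.92) and *Itgb3* (14.8 ± 1.51 to 21.1 ± 0.551 CPM; log2FC 0.51), both of which pair with αv, rose as DEGs among 16 integrins, and *Itgb5* (log2FC 0.16) was called below the limit. These calls were 18.75% of the 16 integrins, against 1.86% of all tested genes. *Itgb3* fell under the fold limit without Control replicate 1 (0.47), Control replicate 2 (0.47) and BGP replicate 2 (0.50), with an FDR under 0.05 each time.

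Of 32 collagen genes, *Col2a1* of cartilage was called higher, *Col11a2* (log2FC -0.21) and *Col15a1* (-0.18) lower, and 22 of 32 had a log2FC below 0 (median -0.05). The calls were 3.1% higher and 6.25% lower, against 1.86% and 0.665% of all tested genes, of which 7056 of 13679 lay below 0. The number called lower rested on single libraries and settings, with 1 without Control replicate 1, Control replicate 2 or BGP replicate 1, 0 without BGP replicate 2, 4 without Control replicate 3, 5 without BGP replicate 3, 6 with no filter on low counts and 0 by DESeq2, and the median moved to -0.07 without Control replicate 1. *Col2a1* had 264, 205 and 257 CPM in Control and 403, 325 and 299 CPM with BGP (log2FC 0.50 ± 0.094 SE, adjusted p = 0.000754). It fell under the fold limit without BGP replicate 1 (0.37), without Control replicate 2 (0.39), with total counts (0.50) and on the TMM table (0.50), and by DESeq2 its adjusted p was 0.316. The *Col11a2* call was lost without Control replicate 1 and BGP replicate 2 (adjusted p = 0.0867 and 0.098), the *Col15a1* call in 5 omissions (up to 0.235), and DESeq2 called neither. Among the other cartilage markers *Acan* had 0 to 1 and *Col9a1* 3 to 8 counts. *Sox9* had 37.1 to 43.3 CPM in Control and 40.4 to 42.4 CPM with BGP (log2FC 0.03, adjusted p = 0.908), and *Matn3* and *Col10a1*, at 2.20 CPM or less, were not called (adjusted p = 0.675 and 0.321). The summed cartilage markers, which include *Col2a1*, went from 250 to 308 CPM in Control to 341 to 447 CPM with BGP, and their part in other results was not tested. Among 25 semaphorins, plexins and neuropilins 3 were called higher (12.0%, against 1.86% of all tested genes). The DEG of these, *Sema7a*, a membrane-anchored ligand of β1 integrins, had 72.2, 61.3 and 85.6 CPM in Control and 176, 164 and 151 CPM with BGP (log2FC 1.16 ± 0.065 SE, adjusted p = 5.63e-16).

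The median log2FC of the tested regulators of osteoblast identity was 0.03. Of them 13.6% were called higher and 4.55% lower, against 1.86% and 0.665% of all tested genes. Among 22 such genes 3 were called higher, *Hivep3* as a DEG with 5.42, 5.74 and 7.52 CPM in Control and 13.2, 11.2 and 11.4 CPM with BGP (log2FC 0.93 ± 0.12 SE, adjusted p = 1.17e-06). *Hivep3* encodes the zinc finger protein Schnurri-3, which restrains bone formation. *Vdr*, the vitamin D receptor (log2FC 0.26, adjusted p = 0.000585), and *Thrb*, a thyroid hormone receptor (0.39, adjusted p = 0.0276; lost in 4 omissions, up to 0.142 without Control replicate 1), were called below the limit, and *Cebpb* was called lower (-0.26). *Runx2* and *Sp7*, the master regulators of the lineage, had log2FC values of 0.01 ± 0.033 SE and 0.03 ± 0.032 SE (adjusted p = 0.954 and 0.726).

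Several other DEGs with large folds were scarce and rest on few reads. *Gm44275*, *Abca13*, *Cd300lb*, *Cd48*, *Lat2*, *Abcg8* and *Gfra1* had means under 1 CPM in Control and between 0.579 and 1.64 CPM with BGP. *Gm44275*, a predicted gene, had 3, 2 and 0 counts in Control and 9, 20 and 16 with BGP. *Cd48* and *Cd300lb*, receptors known from blood cells, were lost in 4 and 5 of 6 omissions (up to 0.265 and 0.287, without Control replicate 1 and without BGP replicate 1), *Abca13* in 5 (up to 0.129), and *Abcg8* and *Gfra1* in 3 each (up to 0.112 and 0.121), whereas *Lat2* and *Gm44275* were called in all 6. A filter of at least 10 counts in every library leaves *Lat2* and *Gm44275* untested, and likewise *Abca13*, *Cd300lb*, *Cd48*, *Abcg8* and *Gfra1*. With only the Control and BGP libraries in the filter *Gm44275*, *Cd300lb* and *Cd48* were not tested. Of 14 cytokines and receptors tested 3 were called higher (21.4%, against 1.86% of all tested genes). *Il12a*, the p35 chain shared by interleukins, had 3.27, 2.39 and 3.19 CPM in Control and 7.08, 8.36 and 7.61 CPM with BGP (log2FC 1.38 ± 0.15 SE, adjusted p = 2.36e-08). *Tnfrsf12a*, the receptor of TWEAK, rose from 31.8 ± 2.76 to 55.6 ± 1.15 CPM (SD, n = 3; log2FC 0.81), and *Tnfrsf11b*, osteoprotegerin, was called below the limit (0.14, adjusted p = 0.0143; lost in 3 omissions, up to 0.107 without Control replicate 2).

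Genes of sterol and fatty acid synthesis carried many calls with small changes. Of 21 tested genes 12 were called higher (57.1%) and 0 lower, all 21 had a log2FC above 0, and the median was 0.17. Over all tested genes 1.86% were called higher, 6623 of 13679 lay above 0, and the median was -0.004. *Idi1* of the isoprenoid pathway was the 1 DEG, with 5.19, 4.96 and 4.84 CPM in Control and 7.44, 7.05 and 7.14 CPM with BGP (log2FC 0.53 ± 0.12 SE, adjusted p = 0.0111). Its call was lost without BGP replicate 1 (adjusted p = 0.0605), and 17.0% of its windows are shared with other genes. *Lss* rose from 40.9 ± 2.79 to 52.0 ± 2.05 CPM (log2FC 0.34), *Insig1*, the sterol sensor that retains SREBP, from 94.2 ± 2.81 to 117 ± 5.39 CPM (0.32), *Stard4* from 43.3 ± 1.85 to 52.8 ± 0.928 CPM (0.29), and *Sqle* from 65.0 ± 1.43 to 79.2 ± 6.09 CPM (0.28), each mean with its SD over 3 libraries. *Elovl6* was called in 1 of 6 omissions (log2FC 0.37; up to 0.282 without Control replicate 1). Without 1 library 7 to 11 members were called and 20 or 21 lay above 0, with the fewest calls without BGP replicate 1. Under each scaling (TMM, DESeq2 size factors, total counts) all 21 lay above 0. The scalings gave nearly the same median log2FC over all genes (-0.004, -0.004 and -0.007), so they could hardly have moved this list.

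The proliferation genes listed, those of mitosis and S phase, carried no call, and genes outside these lists are not covered. In edgeR's quasi-likelihood test, as in DESeq2 and limma, 0 of the 22 mitosis genes and 0 of the 24 S phase genes were called, and at an unadjusted p under 0.05 there were 7 lower mitosis genes and 1 higher and 1 lower S phase gene. Of the 22 mitosis genes 20 lay below 0 and of the 24 S phase genes 17, with medians of -0.09 and -0.02. Over all tested genes 7056 of 13679 lay below 0, with a median of -0.004. *Cdc20* and *Ube2c*, which act late in mitosis, had log2FC values of -0.21 ± 0.083 SE and -0.21 ± 0.094 SE (adjusted p = 0.213 and 0.29), and *Mki67* of -0.09 ± 0.043 SE (adjusted p = 0.356). With Control replicate 3 or BGP replicate 1 left out, 17 of the 22 mitosis genes were below 0, and without Control replicate 3 the mitosis median was -0.045. The S phase genes split into 12 above and 12 below 0 without Control replicate 3 (median -0.005), and their median was -0.01 without BGP replicate 1.

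**Figure D4:**
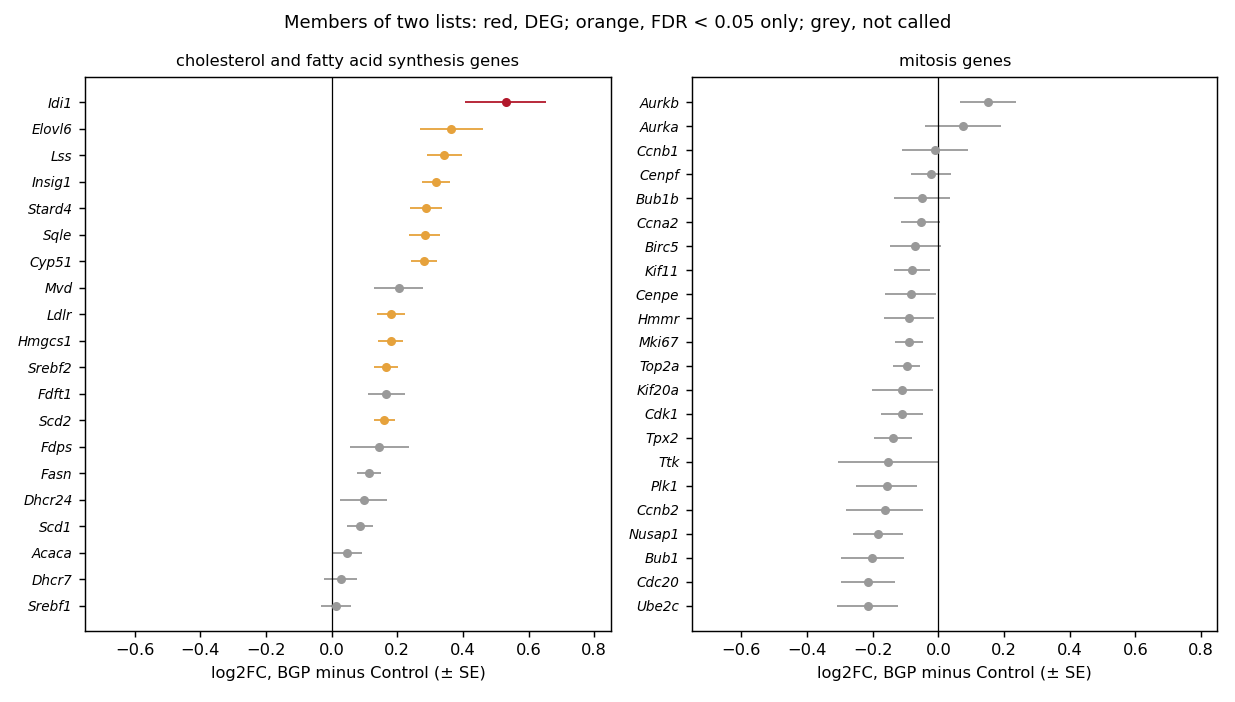
Log2FC (BGP minus Control, horizontal axis) with its standard error for 20 of the 21 tested genes of sterol and fatty acid synthesis and the 22 tested mitosis genes, with the DEG in red, genes with an FDR under 0.05 below the fold limit in orange and the others in grey. The 20 sterol and fatty acid genes plotted lie above 0 and 11 are called, and 20 of the 22 mitosis genes lie below 0 with none called.

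In the lists of housekeeping and stress genes the calls are read beside 1.86% higher and 0.665% lower over all tested genes. Called lower were 5.0% of ribosomal protein genes, 2.53% of oxidative phosphorylation genes and 5.56% of the glycolysis list. Called higher were 11.1% of the glycolysis list, 11.1% of stress response genes, 6.74% of solute carriers and 17.65% of the actin list. Among 80 ribosomal protein genes 4 were called lower (*Rpl13*, *Rpl12*, *Rps2* and *Rpl36*, with log2FC values of -0.26, -0.13, -0.14 and -0.14), 71 lay below 0, and the median was -0.05. Over all tested genes 7056 of 13679 lay below 0, with a median of -0.004. Under DESeq2 size factors and total counts 71 ribosomal protein genes were below 0 as well, but these scalings differed little from TMM. Without 1 library 1 to 4 were called, with 1 in the absence of Control replicate 1, BGP replicate 2 or BGP replicate 3, and *Rpl13* was the 1 of the 4 called in all 6 omissions. *Cox8a* (-0.19) and *Atp5d* (-0.17; lost in 4 omissions, up to 0.149) were called lower among 79 oxidative phosphorylation genes. In the glycolysis list *Slc2a1*, the glucose transporter (log2FC 0.34), and *Ldha* (0.21) were called higher and *Ddit4* lower (-0.13; lost in 4 omissions, up to 0.252). *Mt2*, *Shmt2* and *Txnrd1* (0.18, 0.16 and 0.14) were called higher among 27 stress response genes, the *Shmt2* and *Txnrd1* calls being lost in 4 omissions each (up to 0.189 and 0.21, without Control replicate 1 and without BGP replicate 1). Of 178 solute carriers 12 were called higher and 0 lower, with *Slc20a1*, the nucleoside transporter *Slc29a1* (183 ± 2.89 to 273 ± 16.1 CPM, SD, n = 3; log2FC 0.57) and the zinc and iron transporter *Slc39a14* (110 ± 4.41 to 157 ± 6.61 CPM; log2FC 0.51) as DEGs, the last under the fold limit without Control replicate 2 and BGP replicate 1 (0.49 each). *Actg2* (log2FC 0.33), *Acta2* (0.16) and *Flna* (0.12) were called among 17 genes of actin and its regulators, with *Acta2* lost in 3 and *Flna* in 4 omissions (up to 0.211 and 0.134, without Control replicate 3).

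**Figure D5:**
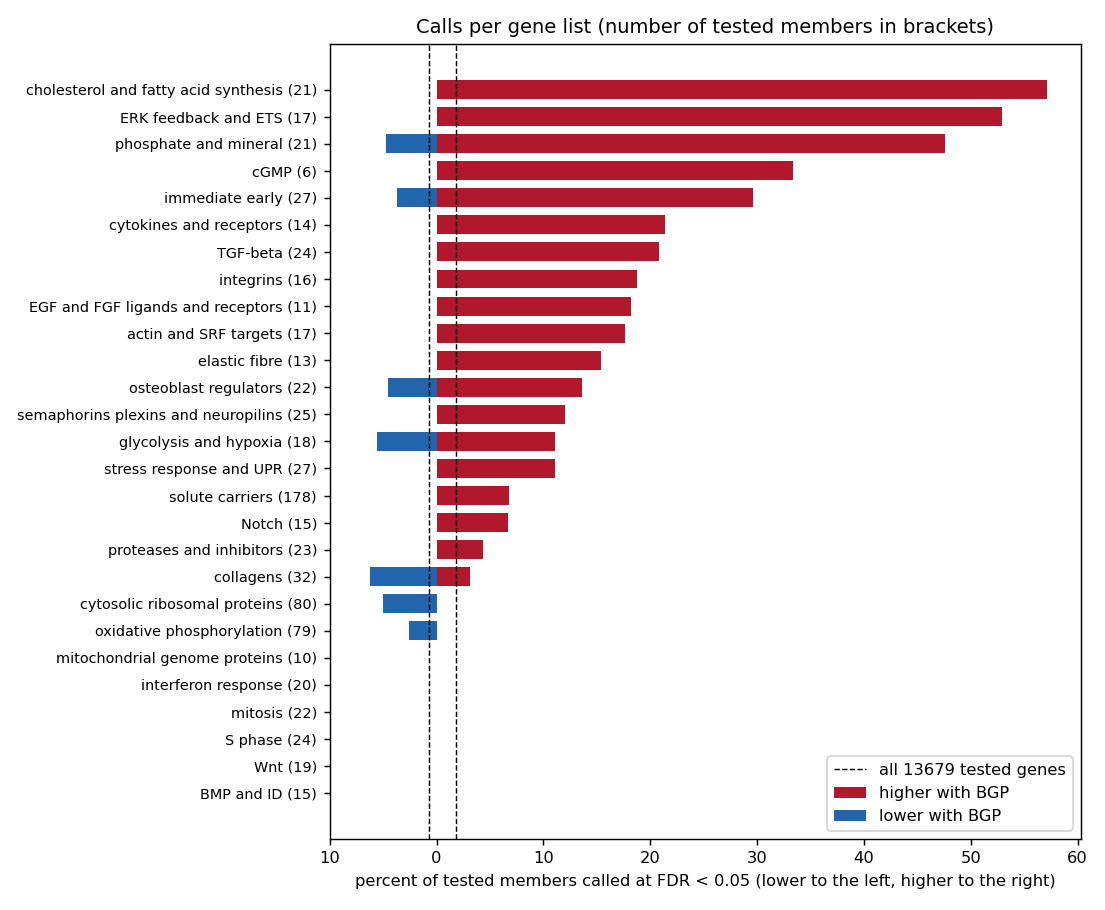
Percent of the tested members of each list with an FDR under 0.05, higher with BGP to the right (red) and lower to the left (blue), with the number of tested members in brackets and the percentages over all tested genes (1.86% and 0.665%) as dashed lines. The sterol and fatty acid list (12 of 21), the ERK feedback list (9 of 17) and the mineral list (10 of 21) have the longest bars, and 6 lists have no call. The lists were chosen with earlier results of these data known, so the bars are descriptions.

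The 10 downregulated DEGs were mostly scarce and of varied function. *Scand1*, a small nuclear protein with a SCAN domain, had 38.1, 35.9 and 32.6 CPM in Control and 25.7, 19.8 and 15.6 CPM with BGP (log2FC -0.80 ± 0.10 SE, adjusted p = 8.4e-07), and it was the 1 that held under each alternative. *Mapkapk5*, a kinase downstream of MAP kinases, fell from 2.28 ± 0.445 to 1.05 ± 0.0652 CPM (SD, n = 3; log2FC -1.12, adjusted p = 0.00959), lost without Control replicate 3 (0.0866) and BGP replicate 2 (0.052), and 64.6% of its windows are shared with other genes. *Hddc3*, *Ccdc170*, *Mafa* and *3830403N18Rik* (log2FC -0.68, -0.64, -0.62 and -0.52) were lost in 4, 5, 4 and 5 omissions (up to 0.134, 0.2, 0.216 and 0.261). The non-coding *2410022M11Rik* (log2FC -1.17) was lost without BGP replicate 2 (0.0543), and *Gm29358* and *Gm29246* (-2.22 and -2.27), both under 1 CPM, in 2 and 5 omissions (up to 0.0711 and 0.216). *Gm29246* was also lost by DESeq2 (0.0902) and with the replicate block (0.0545), and it was not tested with only the Control and BGP libraries in the filter.

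Composition of the transcripts moved with the calls toward lower levels. The median GC content of the longest transcript was 54.9% for 90 of the 91 genes called lower, 50.3% for the 255 called higher and 49.2% for all tested genes. Deviations were taken from the mean of a gene in the Control libraries, so Control values are centred by construction. The tenth of genes with the highest GC content had a median deviation of 0.01, -0.02 and 0.01 (log2) in the Control libraries. In the BGP libraries it was -0.03, -0.05 and -0.02, and the median log2FC was -0.03. The tenth with the lowest GC content had -0.02, 0.03 and -0.02 in Control, 0.02, 0.03 and 0.01 with BGP, and a median log2FC of 0.02. The part of GC content in the calls was not tested.

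Some upregulated DEGs share sequence with other genes, and their values are uncertain. *Gm10925*, *Gm28437*, *Gm28661* and *Gm29216* (log2FC 0.72, 0.69, 0.87 and 0.86) are copies of mitochondrial genes on chromosome 1, with 100%, 100%, 100% and 97.1% of their windows shared with *mt-Atp6*, *mt-Co3*, *mt-Co2* and *mt-Co1*. Leaving out 1 library lost the *Gm28661* call in 4 and the *Gm28437* call in 2 omissions (up to 0.115 and 0.0648, without Control replicate 1 and without BGP replicate 1). The 10 tested genes of the mitochondrial genome itself carried 0 calls in edgeR's quasi-likelihood test, DESeq2 and edgeR's likelihood ratio test called 1 each, and 2 were higher at an unadjusted p under 0.05; their median log2FC was 0.05. In the deposited counts *mt-Co2* and *mt-Co3* had 2 to 7 counts a library. How reads that map to several genes were handled, and whether counting used the strand, is not given in the sources used here. Other DEGs overlap a gene on the opposite strand, and the partners' log2FC values were 0.19 for *Syn1* (with *Timp1*), 0.12 for *Prkar1a* (with *Fam20a*), -0.10 for *Rfc2* (with *Lat2*), -0.03 for *Cstf2t* (with *Prkg1*) and -0.34 for *Cnbd2* (with *Scand1*). *Prkar1a* was called (adjusted p = 0.0344) and the other 4 were not.

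Weighed by reads, *Spp1* took the largest single share of the rise. The genes called higher gained 8573 CPM in all, of which *Spp1* accounted for 36.2%, and *Spp1* with *Dmp1* for 41.7%. The next largest gains were those of *Ank* (172 CPM), *Timp1* (146), the membrane protein *Emp1* (127) and *Mgp* (109). The genes called lower changed by -2344 CPM in all. *Cst3*, which encodes the protease inhibitor cystatin C, changed by -444 CPM, the matrix protein gene *Postn* by -263, the intermediate filament gene *Vim* by -176, *Rps2* by -128, *Col11a2* by -91.3 and *Scarf2* by -74.5 CPM. These losses were small against their levels, with log2FC values between -0.21 and -0.12, and the *Cst3* and *Postn* calls were lost in 4 and 3 omissions (up to 0.178 and 0.141).

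Cells given 4 mM NaHPO4 were compared with the same 3 Control libraries, so the values of both treatments share them and are only set side by side. Of all tested genes 3.43% were called higher and 3.95% lower with NaHPO4 at any fold. Of the 66 DEGs upregulated by BGP 41 were also called higher with NaHPO4, and of the 10 downregulated DEGs 1, *Scand1*, was also called lower. The log2FC was 2.78 with BGP and 0.34 with NaHPO4 for *Fgf23*, 2.86 and 2.19 for *Dmp1*, 1.48 and 1.97 for *Spp1*, and 2.63 and 1.94 for *Enpp1*. For *Egr3* it was 1.83 and 0.85, for *Egr2* 1.38 and -0.16, for *Egr1* 0.89 and -0.28, and for *Eln* 1.00 and -0.94. *Skil* had 0.66 and 0.07, *Hes1* 0.70 and 0.04, and *Timp1* 1.00 and 1.62. Differences between the treatments were not tested here.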

How the data were processed

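RNA of MC3T3-E1 cells was sequenced as stranded, poly(A)-selected paired-end libraries. The authors mapped the reads to GRCm39 and deposited raw counts per gene, with a second table of TMM-normalized signal; per the labels FastQC and edgeR were used, and the aligner and the counting program are not given in the sources used here. Both tables hold 55416 genes, and 0 further columns were left out. The deposited counts were tested here with edgeR 4.0.16 (R 4.3.3), using filterByExpr with a count minimum of 10, TMM factors, and the quasi-likelihood test (glmQLFit, glmQLFTest) over all 9 libraries with 1 coefficient per condition. P-values were adjusted by Benjamini-Hochberg over 13679 genes. The SE of a log2FC is its absolute value over the square root of F. Libraries of 21390839 to 25646046 counts limit precision for genes under 1 CPM, where counting error is large. Alternatives used DESeq2 1.42.0, limma 3.58.1 on log2(deposited TMM signal + 1), other scalings and filters, and each library left out. The script was tested on simulated data. Lists of genes, and the comparison itself, were chosen with earlier results of these data known. Genes were named as the 20 DEGs with the largest rise, all DEGs that fell, the DEGs of each list, members without a call with their values, the 6 called genes with the largest gain and loss in CPM, genes the study names for BGP, neighbours of *Fgf23* and *Dmp1*, and genes a sentence singles out, which were chosen after their values were seen. Upstream windows of 250 bases were read from GRCm39 with GENCODE annotation. The libraries of NaHPO4 were used for the spread, the filter on low counts and values set side by side. Some items are not reported here.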

Additional observations from a re-analysis of the deposited data

How the results depend on the processing

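With edgeR's likelihood ratio test in place of the quasi-likelihood test 20 DEGs were lower and 144 genes were called lower at any fold. With 1 library left out, the higher DEGs numbered 53 to 69, the lower DEGs 1 to 9, the genes called higher at any fold 154 to 217 and those called lower 34 to 66; each such fit has fewer libraries. Under the other alternatives the higher DEGs numbered 59 to 87, and 40 of the 76 DEGs were DEGs under all 15 alternatives. The share of DEGs that were higher ranged from 81.3% to 98.4%. *Sost* reversed, with log2FC values from -0.45 to 0.16 when 1 library was left out (0.16 without BGP replicate 3), and the cause was not tested. Genes under 1 CPM are limited by depth.

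The main fit did not pair the libraries by replicate number. Deviations of same-numbered Control and BGP libraries from their group means correlated at 0.024, -0.0042 and -0.0092. Pairs with different numbers correlated at -0.019 to 0.024. Not every library correlated best with its own number (Control replicate 2 with BGP replicate 3, at 0.014). Over all genes these values are too small to tell whether same-numbered libraries shared a batch. Adding the replicate block gave 67 higher and 9 lower DEGs, with 254 and 97 genes called at any fold.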
